A study of Mus musculus with 33 samples.

Results

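Pisd encodes phosphatidylserine decarboxylase, and 6 noncoding genes are described with it here: the pseudogenes Pisd-ps1, Pisd-ps2, Gm18517 and Gm3654, the long noncoding RNA A530053G22Rik and the provisional transcript Gm43173. They are 7 of the 41565 named genes of the table and were found by their gene names. The list was drawn up from the genes' values after ovariectomy (OVX) in these same libraries, with Pisd as the coding relative of the pseudogenes. Differences of the 7 genes between the groups are therefore given as a description and support nothing by themselves, and this also holds for the counts of limma calls among them.

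RNA was sequenced from whole tissue of WT female mice, either the posterior part of the hypothalamus (PH) or the preoptic area (POA) at its anterior end. The intact mice still had their ovaries and were collected in diestrus (the titles of their libraries say sham, another label says intact), and the other mice were bilaterally ovariectomized as young adults and collected 14 days or 4 months later. The PH gave 4 intact, 6 14-day and 6 4-month libraries, and the POA gave 5, 6 and 6. All groups share the WT genotype, and no transgene was involved. Mice of the 4-month groups were older at collection, with no intact group of the same age, so time after OVX and age cannot be told apart. Each group was spread over both batches given in the labels. The labels do not tie a PH library to a POA library of the same mouse.

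Values in the table are a normalized signal on a linear scale and not read counts, so the sequencing depth behind them is unknown and no interval based on counts can be given. Genes without measurable expression lie near a floor of 22.1, at which most low values gather. The floor is part of each value and the exact transform is not known, so a log2 fold change here is one of the signal, may differ from that of expression, and may understate it for genes near the floor (Gm3654, A530053G22Rik and Gm43173). The sum of a library's values was between 88.7% and 109% of the median sum of all libraries, except in replicate 5 of the PH 14-day group, where it was 145%. Without this library the log2 fold changes of the 7 genes at 14 days in the PH moved by less than 0.1, with none turning its direction. The surrogate variable (SV1) that the fit used as a covariate was at 0.79 in this library and between -0.31 and 0.19 in the other PH libraries. The fit thus already allowed for this library in large part, so the small move says little. The markers of neurons, astrocytes, oligodendrocytes, microglia and endothelial cells were all at 2 times the floor or more in all 33 libraries, 4 of 4 in each list, as were those of red blood cells and choroid plexus, while 1 of 4 anterior pituitary markers was. In bulk tissue, fewer cells of a type and less RNA per cell cannot be told apart.

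Phosphatidylserine decarboxylase sits in the inner mitochondrial membrane and turns phosphatidylserine, delivered from the endoplasmic reticulum, into phosphatidylethanolamine, one of the main lipids of mitochondrial membranes. A parallel route in the endoplasmic reticulum builds the same lipid from ethanolamine. A pseudogene is a gene copy that no longer codes for the full protein, and it is called unprocessed where the copy arose by duplication of DNA, introns included, and processed where a spliced transcript was copied back into the genome. Long noncoding RNAs are transcripts without a clear open reading frame.

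Coordinates are those of mouse build mm39 (GRCm39) with the GENCODE M39 annotation. Pisd lies on the minus strand at chr5:32893210-32943185, with 30 annotated transcripts. Pisd-ps1 lies at chr11:3076006-3081004 on the plus strand and Pisd-ps2 at chr17:3126853-3134357 on the minus strand. Both are annotated as transcribed unprocessed pseudogenes with 1 transcript of 7 exons each. The transcript of Pisd-ps1 was 94.0% identical to Pisd over 1075 aligned bases, that of Pisd-ps2 was 93.9% identical over 1071 bases, and the pseudogenes were 94.6% identical to each other over 1064 bases.

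A stretch of 120 coding bases in exon 4 of Pisd (chr5:32896489-32896608, minus strand) is shown with the aligned stretches in exon 3 of Pisd-ps1 (chr11:3079038-3079157, plus strand) and exon 3 of Pisd-ps2 (chr17:3129638-3129757, minus strand), to show how few bases tell the genes apart. It is the ungapped single-exon stretch of this length with the most differing positions. Sequences are written 5′ to 3′ from the annotated transcripts, and capitals mark the 10 positions at which the 3 genes are not all the same.
Pisd: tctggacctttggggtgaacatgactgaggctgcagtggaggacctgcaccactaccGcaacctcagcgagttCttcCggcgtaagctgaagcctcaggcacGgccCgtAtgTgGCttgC
Pisd-ps1: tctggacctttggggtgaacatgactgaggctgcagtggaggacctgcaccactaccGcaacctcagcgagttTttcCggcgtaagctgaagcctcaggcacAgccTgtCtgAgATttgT
Pisd-ps2: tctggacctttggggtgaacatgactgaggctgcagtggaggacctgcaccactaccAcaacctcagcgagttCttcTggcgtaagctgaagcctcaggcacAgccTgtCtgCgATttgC

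Each pseudogene differed from Pisd at 8 of the 120 positions. The longest run without a difference was 97 bases between Pisd and Pisd-ps1, 139 bases between Pisd and Pisd-ps2 and 81 bases between the pseudogenes, each longer than a single read of these libraries. Of all stretches of 31 bases in its transcripts, 6.22% of those of Pisd also occurred in another gene of the table, as did 28.7% of those of Pisd-ps1 and 42.2% of those of Pisd-ps2. Reads from the shared stretches can be split among the 3 genes by the quantification, so the value of each pseudogene is uncertain to that degree. M39 also holds long noncoding RNAs over the pseudogenes, Gm74511 over Pisd-ps1 and Gm64819 over Pisd-ps2, which were not analysed here.

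The values of Pisd overlapped between the groups of each region. In the intact PH its values were 2340.4, 2469.5, 2737 and 2881. At 14 days they ran from 1417 to 3125 with a median of 2581, and at 4 months from 2314 to 3239.9 with a median of 3077. The 3 groups overlapped, and the lowest of the 16 PH values was that of replicate 5 at 14 days, the library with the largest sum.

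In the intact POA Pisd was at 2283, 2434, 2859.6, 2911 and 3009. At 14 days it ran from 2168 to 3201 with a median of 2708, and at 4 months from 2312 to 3841 with a median of 2891. These groups overlapped as well. The batches differed more than the groups did: the 8 POA libraries of batch 1 lay between 2168 and 2817 and the 9 of batch 2 between 2859.6 and 3841. At 4 months the fitted log2 fold change of Pisd against intact mice was 0.13 ± 0.07 in the PH (SE, n = 6 and 4), while the POA gave 0.21 ± 0.06 (SE, n = 6 and 5). At 14 days it was 0.03 ± 0.07 (PH) and 0.06 ± 0.06 (POA). The 95% interval of the POA value at 4 months ran from 0.08 to 0.34, with a limma adjusted p of 0.289.

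Pisd-ps1 was higher 4 months after OVX in both regions. In the intact PH its values were 2122, 2574, 2258 and 2180.0. At 14 days they ran from 1476 to 3675 with a median of 2641, and at 4 months from 3444 to 6625 with a median of 5623. All 6 libraries at 4 months were above all 4 intact libraries, and 5 of them were above every library at 14 days, while the 14-day and intact groups overlapped. The mean at 4 months was 5325 ± 1174 (SD, n = 6) against 2284 ± 202 (SD, n = 4) in intact mice, a fitted log2 fold change of 1.15 ± 0.14 (SE). Within batch 1 the difference of the mean log2 values was 0.91, and within batch 2 it was 1.47.

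The POA gave a wider spread of Pisd-ps1. Intact values were 1914, 2176, 2173, 2485 and 2410.4. The 14-day values ran from 1472 to 6309.5 with a median of 2253, and the 4-month values from 2866 to 10939 with a median of 4859. The 6 libraries at 4 months were all above the 5 intact ones, but replicate 6 at 14 days, at 6309.5, lay above 4 of them. The log2 fold change of Pisd-ps1 at 4 months was fitted at 1.30 ± 0.30 (SE), and without replicate 5, which held the highest value, it was 1.10. Within batches the difference of the mean log2 values was 1.09 and 1.31. At 14 days it was 0.28 ± 0.30 (SE), and without replicate 6 it was 0.02.

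Pisd-ps2 had smaller differences in the same direction. In the intact PH it was at 305, 438, 487 and 443. It ran from 217 to 563 with a median of 450.3 at 14 days and from 478 to 839 with a median of 736 at 4 months. Of the 6 libraries at 4 months 5 were above all intact ones. Against intact mice its log2 fold change at 4 months was fitted at 0.68 ± 0.13 (SE).

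In the POA Pisd-ps2 was at 401, 388, 483, 431 and 558 in intact mice. It ran from 327 to 740.5 with a median of 425 at 14 days and from 498 to 1348 with a median of 551 at 4 months. Only 2 of the 6 libraries at 4 months were above all intact ones, so the groups overlapped. The fitted value of the POA at 4 months was 0.66 ± 0.15 (SE) on the log2 scale, and without replicate 5, which held the highest value, it was 0.48.

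**Figure D1:**
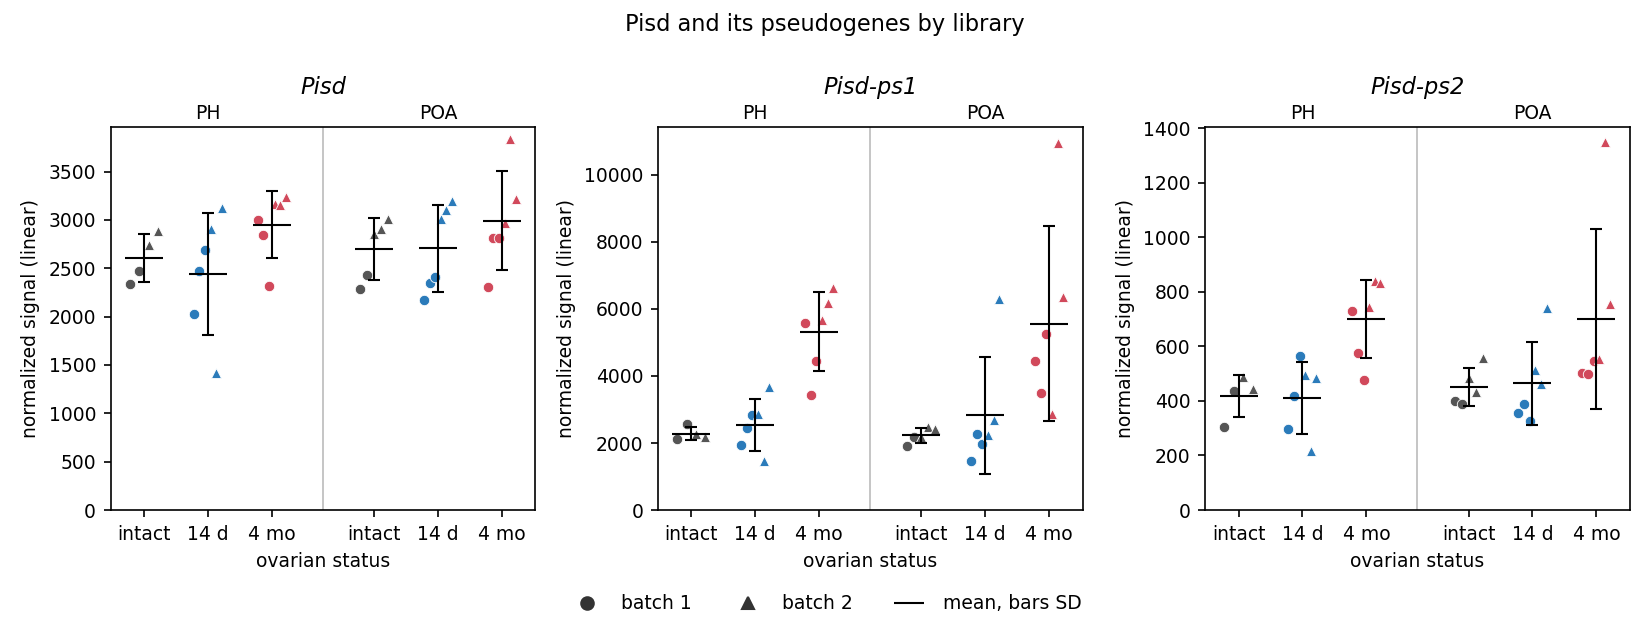
Normalized signal (linear axis from 0) of Pisd, Pisd-ps1 and Pisd-ps2 in each library, by region and ovarian status; circles are batch 1, triangles batch 2, horizontal lines group means and bars SD. The Pisd groups overlap in both regions, whereas all 12 Pisd-ps1 values at 4 months lie above the intact values of their region.

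The ratio of Pisd-ps1 to Pisd sets the genes side by side within each library. It compares libraries and not the abundance of the 2 genes, since the values are not per length. In the intact PH the ratio was 0.907 and 1.04 in batch 1 and 0.825 and 0.757 in batch 2, where Pisd was higher. It ran from 0.959 to 1.18 at 14 days and from 1.21 to 2.04 at 4 months, where the median was 1.89, so that all 6 libraries at 4 months lay above the others of the region.

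In the POA the ratio ran from 0.760 to 0.894 in intact mice, from 0.679 to 1.97 at 14 days and from 0.967 to 2.85 at 4 months, with a median of 1.90 at 4 months. Sorted over all 33 libraries, the ratios left their widest gap between 1.24 and 1.79. Above it were 10 libraries: 5 PH and 4 POA libraries at 4 months, and 1 POA library at 14 days. The ratio of Pisd-ps2 to Pisd had a median of 0.165 in the intact PH and 0.239 at 4 months, and the POA had 0.169 and 0.206.

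**Figure D2:**
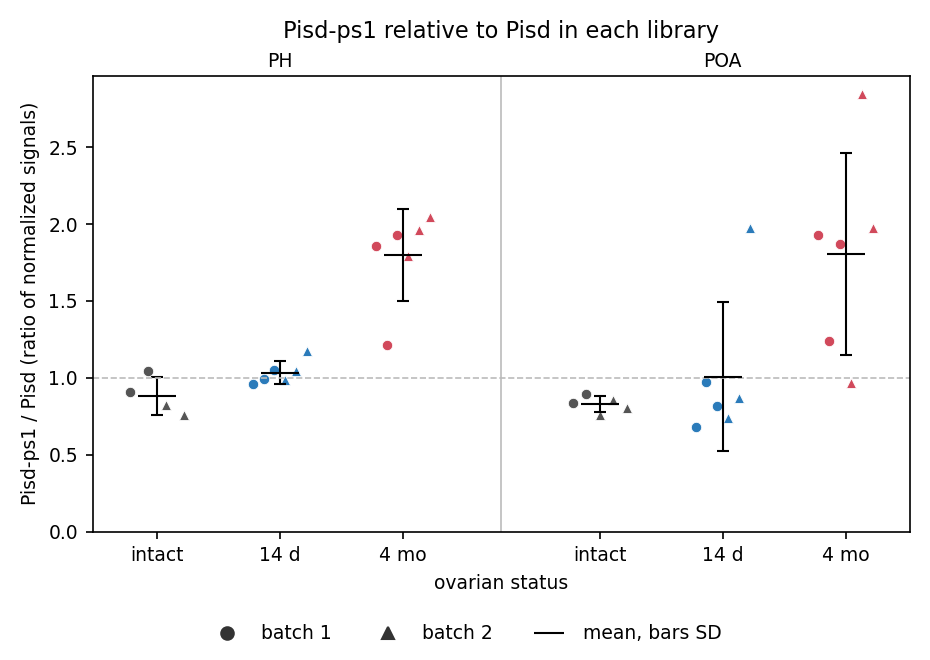
Ratio of the normalized signals of Pisd-ps1 and Pisd in each library (linear axis from 0), by region and ovarian status; circles are batch 1, triangles batch 2, horizontal lines means and bars SD. Ratios at 4 months reach 2.85, and 10 libraries lie above the gap between 1.24 and 1.79.

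Across libraries the 3 genes moved together. Pearson's r of the log2 values of Pisd-ps1 and Pisd-ps2 was 0.91 over the 16 PH libraries and 0.90 over the 17 POA libraries, and with the group means removed it was 0.84 and 0.86. For Pisd and Pisd-ps2 it was 0.88 and 0.84, and for Pisd and Pisd-ps1 it was 0.73 and 0.69. Without replicate 5 of the PH 14-day group, the PH values were 0.89, 0.84 and 0.67 in the same order. The genes share sequence, libraries and normalization, so these values are a description.

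Of the other 21206 genes tested in both regions, Pisd-ps2 was the one most like Pisd-ps1, followed by Zfp36, which encodes an mRNA decay factor (r of 0.79 and 0.75, PH first), and Ly6a, a surface protein gene of endothelial cells in the brain (0.72 and 0.73). The genes most like Pisd were Tmem161a, C1qtnf4 and Ccdc85b, with r of 0.88 to 0.90. After Pisd-ps1 and Pisd, the gene most like Pisd-ps2 was Idua, a lysosomal enzyme gene (0.76 and 0.79).

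The neighbours of the Pisd genes did not pass the test. Sfi1, which encodes a centrosomal protein, ends 836 bases from Pisd-ps1 on the opposite strand, and its log2 fold change 4 months after OVX was 0.20 ± 0.12 (SE, PH) and 0.08 ± 0.13 (SE, POA), with limma adjusted p of 0.867 and 0.898. In the POA 14-day replicate 6, in which Pisd-ps1 was at 6309.5, Sfi1 was at 1322, against 539.6 to 787 in the other 5 libraries of the group. Pearson's r of Pisd-ps1 with Sfi1 was 0.58 over 16 PH libraries and 0.68 over 17 POA libraries. The pair was picked after the values of Pisd-ps1 were seen. Prr14l, 3365 bases from Pisd, had log2 fold changes at 4 months of 0.14 ± 0.13 (SE, PH) and 0.01 ± 0.09 (SE, POA). Gm5679, the nearest tested neighbour of Pisd-ps2, was at -0.03 ± 0.15 and -0.06 ± 0.12, and Gm2420, which overlaps Pisd over 329 bases, was at 0.02 and -0.06.

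Gm18517 is a processed pseudogene of 808 bases in 1 exon at chr13:81234876-81235683, on the minus strand. Only 2.70% of its 31-base stretches occurred in another gene of the table. Of its 11 copies in the table, such as a stretch of Crb1 that was 80.3% identical over 859 bases, 2 were high enough to be tested and 0 were called by limma in any of the 6 comparisons, also at an unadjusted p under 0.05. It was higher at both times after OVX in both regions. In the intact PH it was at 142, 187, 131 and 122. It ran from 183 to 321 with a median of 209 at 14 days and from 207 to 368 with a median of 241 at 4 months.

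In the PH all 6 Gm18517 values at 4 months and 5 of 6 at 14 days were above all intact values. On the log2 scale the fitted change from intact mice was 0.51 ± 0.14 (SE) at 14 days and 0.83 ± 0.14 at 4 months. Without replicate 3, which held the highest value at 4 months, the latter was 0.75.

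In the POA Gm18517 was at 174, 166, 135, 154 and 144 in intact mice. It ran from 173 to 248 with a median of 202 at 14 days and from 199.9 to 343 with a median of 239 at 4 months. Again 5 of 6 values at 14 days and 6 of 6 at 4 months were above all intact values. The fitted log2 fold changes were 0.34 ± 0.12 (SE) and 0.65 ± 0.12.

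The long noncoding RNA 9330111N05Rik runs across the whole of Gm18517 on the opposite strand. Its mean went from 83.1 ± 24.3 (SD, n = 4) in the intact PH to 118 ± 39.4 (SD, n = 6) at 4 months, and from 81.3 ± 26.4 (SD, n = 5) to 127 ± 41.2 (SD, n = 6) in the POA. The log2 fold changes of 9330111N05Rik, 0.50 ± 0.23 and 0.61 ± 0.26 (SE), did not pass the test (limma adjusted p = 0.796 and 0.516). The library kit kept the strand, but whether the quantification used it is not given in the sources used here. Adgrv1, which encodes a large adhesion receptor and lies next to Gm18517 on the same strand, was at 0.01 ± 0.14 (PH) and -0.13 ± 0.13 (POA).

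Endothelial and erythroid markers moved with Gm18517. The sum over 4 endothelial markers, Cldn5, Pecam1, Flt1 and Ly6c1, ran from 5117 to 5439 in the intact PH and from 6214 to 9105 at 4 months, and from 5189 to 5846 and from 5522 to 8345 in the POA. That of 4 erythroid markers ran from 6036 to 7915 in the intact PH and from 11374 to 34581 at 4 months, and from 6635 to 15401 and from 8880.2 to 21024 in the POA. Pearson's r of Gm18517 with the endothelial sum was 0.82 over 16 PH libraries and 0.69 over 17 POA libraries. The genes most like Gm18517 were Pcdhb14, a protocadherin gene (r = 0.90 and 0.77), Apod, which encodes a lipid carrier (0.76 and 0.80), and Anxa3, an annexin gene (0.76 and 0.77). The part of these cells in the values of Gm18517 was not tested.

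A530053G22Rik is a long noncoding RNA gene with 13 transcripts at chr6:60256028-60380796, on the minus strand. It had no close copy in M39, and 1.45% of its 31-base stretches occurred in another gene of the table. No neighbour within 100 kb was high enough to be tested. It was higher at 4 months in both regions. In the intact PH it was at 60.2, 60.1, 43.9 and 36.2, and it ran from 30.3 to 110.4 with a median of 68.1 at 14 days and from 66.1 to 117 with a median of 83.3 at 4 months.

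In the POA A530053G22Rik was at 45.4, 49.9, 43.3, 54.3 and 39.9 in intact mice. It ran from 55.8 to 74.3 with a median of 58.9 at 14 days and from 63.3 to 90.0 with a median of 83.7 at 4 months. All 6 libraries at each time in the POA, and all 6 at 4 months in the PH, were above all intact ones, while the 14-day PH group overlapped with the intact one. The POA values at 14 days and 4 months overlapped, with 5 of 6 libraries at 4 months above all at 14 days. At 4 months the fitted log2 fold change was 0.81 ± 0.27 in the PH (SE), close to the 0.80 ± 0.13 of the POA. Within batches the difference of the mean log2 values was 0.63 and 0.95 (PH) and 0.80 and 0.79 (POA). Gm18517 was the gene most like it (r of 0.66 and 0.71, PH first), and Apod and Myo1e, a myosin gene, followed at 0.60 to 0.62. With the group means removed, r of A530053G22Rik with Gm18517 was 0.47 (PH) and -0.09 (POA).

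Gm3654 is an unprocessed pseudogene of 5 exons and 909 transcript bases at chr7:8285126-8291933, on the minus strand. Its copies were 81.8% to 97.1% identical to it. M39 held 21 genes of at least 75% identity over at least 50% of its transcript, all on chromosome 7, and 14 of them have a row in the table. They include the zinc finger genes Zfp772 (88.1% identical) and Zfp954 (81.8%). Of its 31-base stretches 60.9% occurred in another gene of the table, so its value is uncertain.

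A stretch of 100 bases in exon 5 of Gm3654 (chr7:8285287-8285386, minus strand) is shown beside Zfp419, its closest copy in the table, in exon 4 (chr7:9061603-9061702, minus strand), and the long noncoding RNA Gm45351, in exon 5 (chr7:9604397-9604496, minus strand). Capitals mark the 14 positions that are not the same in all of them, and the stretch was chosen by the same rule as that of Pisd.
Gm3654: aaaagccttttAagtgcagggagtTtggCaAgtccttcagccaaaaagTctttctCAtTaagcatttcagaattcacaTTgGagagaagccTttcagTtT
Zfp419: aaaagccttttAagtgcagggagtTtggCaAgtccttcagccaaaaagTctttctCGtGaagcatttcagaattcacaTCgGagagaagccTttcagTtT
Gm45351: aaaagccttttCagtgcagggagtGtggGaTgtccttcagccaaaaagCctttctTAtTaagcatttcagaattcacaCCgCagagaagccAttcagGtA

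Here Zfp419 differed from Gm3654 at 3 positions and Gm45351 at 12. Gm3654 was higher after OVX in the POA. It was at 24.5, 36.1, 38.3, 31.4 and 38.8 in intact mice. It ran from 43.3 to 70.8 with a median of 55.2 at 14 days and from 49.2 to 88.3 with a median of 59.7 at 4 months. All 12 values after OVX were above all 5 intact values, none of which reached 2 times the floor. Fitted log2 fold changes of Gm3654 were 0.74 ± 0.16 (SE) at 14 days and 0.97 ± 0.16 at 4 months, and within batches the latter was 1.01 and 0.88.

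In the PH Gm3654 was at 25.2, 67.5, 30.9 and 74.9 in intact mice, a spread that covered every value of the 14-day group. It ran from 30.6 to 64.1 at 14 days and from 22.8 to 59.7 at 4 months. The log2 fold change at 4 months was -0.24 ± 0.29 (SE), on the other side of 0 from the POA. The difference between the regions was not tested.

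Of the 14 copies with a row, the PH allowed a test of 7 and the POA of 8, and none was called in any of the 6 comparisons (limma, adjusted p of 0.169 or more). At an unadjusted p under 0.05, the count was 3 of 8 in the POA at each time against intact mice and 0 of 7 in the PH. Over all genes tested the share was 6.13% and 8.50% in the POA at 14 days and 4 months, against 3.03% and 6.06% in the PH. The median log2 fold change of the 8 copies in the POA at 4 months was 0.25, beside -0.01 over all genes. Zfp419, which is among the 3 at each time, was at 36.1 or less in the intact POA, under 2 times the floor. It passed the filter through the OVX libraries and had to differ to do so, so nothing is read from these POA counts or the median. Zfp419 had a mean of 29.2 ± 5.17 (SD, n = 5) in the intact POA, 50.1 ± 4.91 (SD, n = 6) at 14 days and 49.3 ± 14.0 (SD, n = 6) at 4 months. Gm45351 had means of 128 ± 44.5, 231 ± 21.5 and 224 ± 54.2 in the same groups. Pearson's r with Gm3654 over 17 POA libraries was 0.75 for Zfp419 and 0.60 for Gm45351, and over 16 PH libraries it was -0.15 and 0.33. The part of the copies in the value of Gm3654 was not tested. The genes most like Gm3654 were Trim7, a ubiquitin ligase gene (0.59 and 0.71), Gm40617 (0.56 and 0.55) and Ppef2, a phosphatase gene (0.52 and 0.55).

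Gm43173 is a provisional transcript of 2367 bases without introns at chr5:93238844-93241210, on the minus strand. It is covered over 2137 bases by Gm43172 on the opposite strand and overlaps the start of Septin11, a cytoskeletal GTPase gene, by 24 bases. As a result 90.2% of its 31-base stretches occurred in Gm43172 when strand is set aside. Its values lay on the floor or a few steps above it. In the intact POA it was at 23.2, 23.7, 22.8, 39.6 and 22.8, with 4 of the 5 libraries near the floor.

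At 14 days the POA values of Gm43173 were 23.0, 22.8, 44.7, 60.5, 46.6 and 41.9, and at 4 months they were 66.1, 62.9, 43.1, 43.2, 67.1 and 82.2. All 6 values at 4 months were above all intact values, and 4 of 6 at 14 days were. For Gm43173 the fitted values were 0.60 ± 0.23 (SE) at 14 days and 1.27 ± 0.23 at 4 months on the log2 scale, and within batches the latter was 1.27 and 1.18. In the PH it was at 21.3, 40.0, 50.2 and 40.4 in intact mice, ran from 21.3 to 60.0 at 14 days and from 20.9 to 56.3 at 4 months, and the 3 groups overlapped. There the log2 fold change at 4 months was -0.21 ± 0.27 (SE), and the difference from the POA was not tested.

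Gm43172 went the other way in the POA. Its mean was 91.3 ± 15.1 (SD, n = 5) in intact mice, 79.5 ± 15.6 (SD, n = 6) at 14 days and 49.3 ± 23.8 (SD, n = 6) at 4 months. The log2 fold change of Gm43172 between 4 months and intact was -1.03 ± 0.31 (SE) and did not pass the test (limma adjusted p = 0.312). The sum of both transcripts was 118 ± 15.9 (SD, n = 5) in the intact POA, 119 ± 10.3 (SD, n = 6) at 14 days and 110.0 ± 14.9 (SD, n = 6) at 4 months, with ranges of 96.8 to 137, 105 to 134 and 85.1 to 129 that overlapped. Pearson's r between the transcripts was -0.76 over 17 POA libraries and -0.60 over 16 PH libraries. The floor is part of each value, and the pair was singled out after its values were seen. The genes most like Gm43173 were Epg5, Calhm2 and Il17rd, at r of 0.62 to 0.66.

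**Figure D3:**
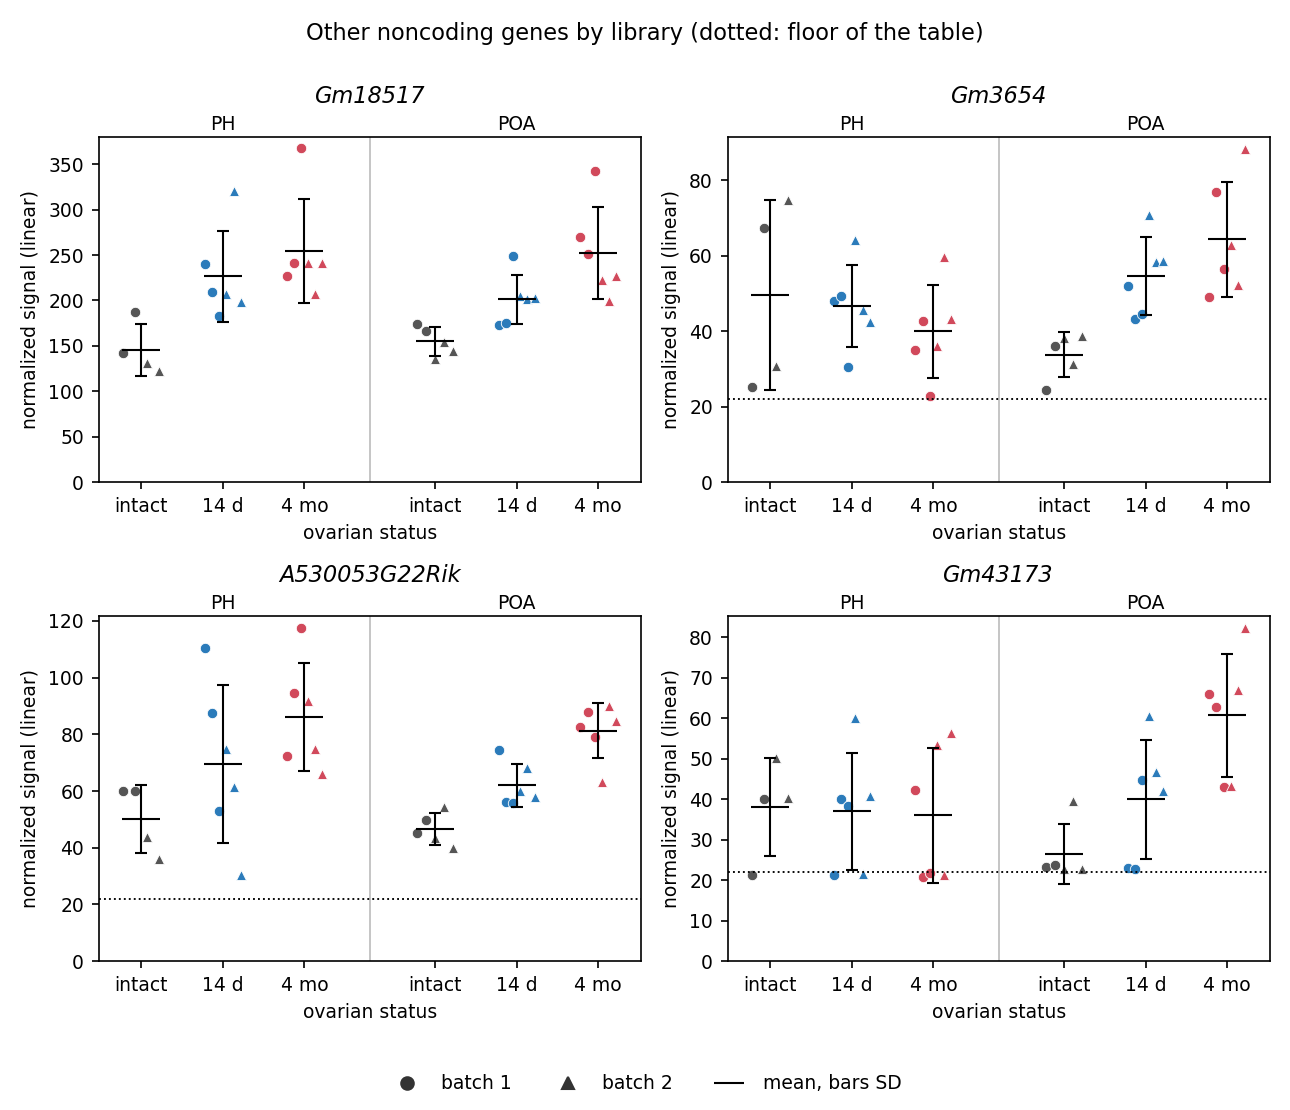
Normalized signal (linear axes from 0) of Gm18517, Gm3654, A530053G22Rik and Gm43173 in each library, by region and ovarian status; circles are batch 1, triangles batch 2, horizontal lines means, bars SD and the dotted line the floor of 22.1. All 4 genes at 4 months lie above the intact POA values, whereas Gm3654 and Gm43173 overlap in the PH.

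**Figure D4:**
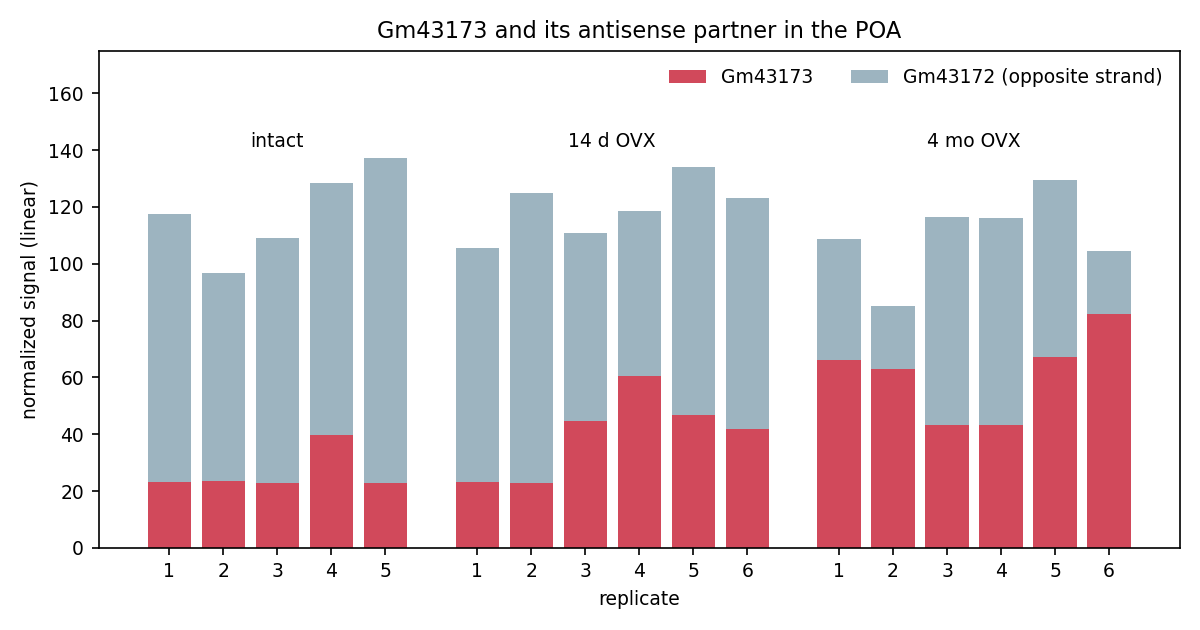
Stacked normalized signal (linear axis from 0) of Gm43173 and of Gm43172, on the opposite strand, in each of the 17 POA libraries, by ovarian status and replicate. The Gm43173 part is at 43.1 or more at 4 months, while the total overlaps between the groups.

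At 4 months Pisd had log2 fold changes of 0.13 (PH) and 0.21 (POA), the nearest to 0 of the 7 genes. Pisd-ps1, Pisd-ps2, Gm18517 and A530053G22Rik were higher than in intact mice in both regions, with log2 fold changes from 0.65 to 1.30. Gm3654 and Gm43173 were higher in the POA, at 0.97 and 1.27, and at -0.24 and -0.21 in the PH. Comparisons with intact mice at 14 days and 4 months share their intact libraries and are not independent of each other.

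**Figure D5:**
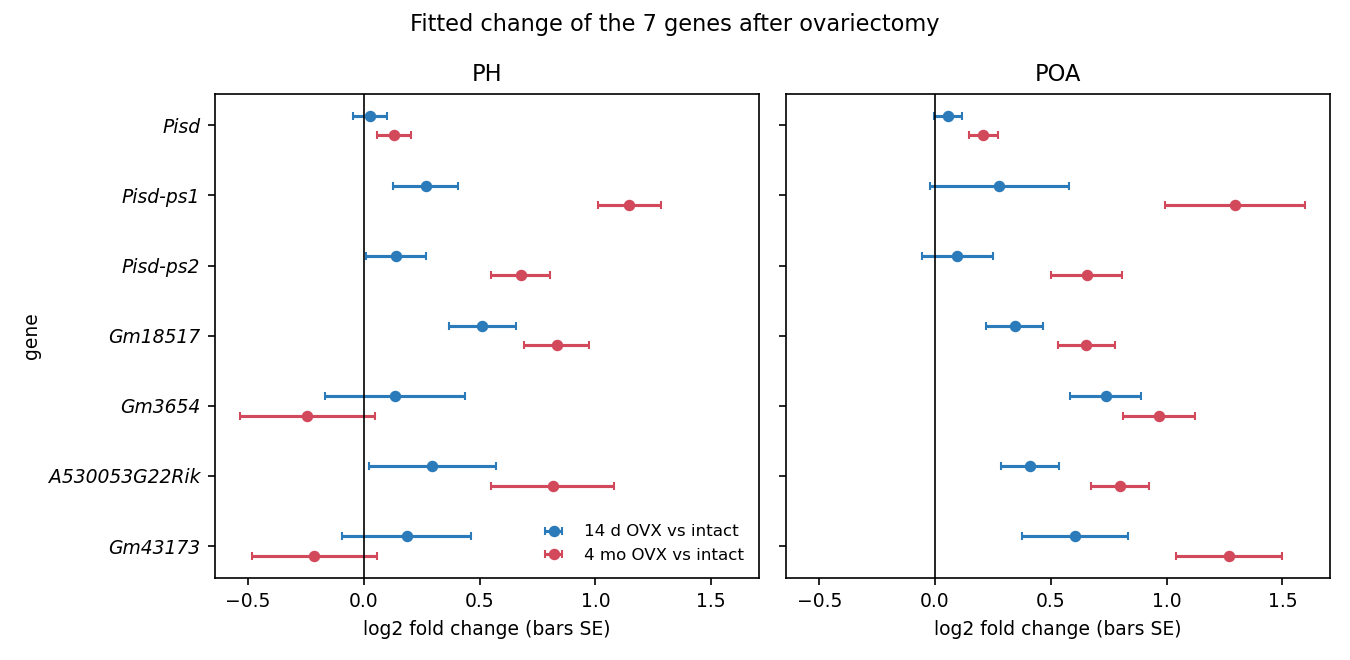
Fitted log2 fold change (points) with its SE (bars) of the 7 genes in the PH and POA, 14 days (blue) and 4 months (red) after OVX against intact mice. Pisd lies nearest to 0 at 4 months in both panels, at 0.13 and 0.21, and Gm3654 and Gm43173 lie below 0 at 4 months in the PH.

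All 7 genes passed the filter on low values in both regions. In the POA neither Gm3654 nor Gm43173 reached 2 times the floor in any intact library, so both passed the filter through the OVX libraries and had to differ to do so. By limma over all genes tested, with an adjusted p under 0.05, Pisd-ps1 and Gm18517 were called higher in the PH at 4 months against intact mice, where 0.0273% of 21982 genes were called higher. In the POA Gm18517, Gm3654, A530053G22Rik and Gm43173 were called higher at 4 months, where 0.0796% of 21355 genes were. Pisd-ps1 was called higher in the PH at 4 months against 14 days, with 0.0091% of all genes. At 14 days none of the 7 was called in either region, with 0% of genes called higher in both, and none in the POA at 4 months against 14 days, with 0.0234% called higher. The list was drawn from these same contrasts, so nothing is read from the counts. They also depended on the fit: the PH count at 4 months against intact mice was 0 with batch or no covariate in place of the surrogate variable, and the POA count was 0 without intact replicate 1 or without 4-month replicate 6.

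By non-overlap with intact mice in the higher direction, the PH had Pisd-ps1, Gm18517 and A530053G22Rik at 4 months, with 0.555% of all genes tested, and the POA had Pisd-ps1, Gm18517, Gm3654, A530053G22Rik and Gm43173, with 0.412%. At 14 days Gm3654 and A530053G22Rik did not overlap in the POA, with 0.262% of all genes. None did in the PH, with 0.277%. Between 4 months and 14 days none of the 7 genes was free of overlap, with 0.127% of all genes in the PH and 0.0702% of those in the POA.

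Genes of phospholipid synthesis and of mitochondrial phospholipids were not listed for how they moved, though earlier results of these data were known. They had no call, beside at most 0.0796% of all genes called higher in any of the 6 comparisons. In either direction, at most 20 of 21355 genes were called (POA, 4 months against intact mice). With so few calls over all genes, a count of 0 in a list of this size says little. Of 48 genes of phospholipid synthesis and of mitochondrial phospholipid transport and membrane shape, 47 were found by name and tested in both tissues, and 0 were called in any of the 6 comparisons by limma. By limma at an unadjusted p under 0.05, the PH held 2 at 14 days, 4 at 4 months and 3 between the times, and the POA held 4, 3 and 4. Over all genes tested these shares were 3.03%, 6.06% and 4.09% in the PH, while the POA had 6.13%, 8.50% and 5.11%. At 4 months against intact mice the median log2 fold change of the 47 genes was -0.04 (PH) and -0.02 (POA), beside -0.01 over all genes tested in each region. The PH had 15 above 0 and 32 below, and the POA 16 and 31, beside 47.2% and 46.5% of all genes above 0.

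The enzymes that make phosphatidylserine, the substrate of Pisd, were between -0.15 and 0.00 on the log2 scale at 4 months. Ptdss1 had log2 fold changes of -0.04 ± 0.10 (SE, PH) and -0.02 ± 0.07 (SE, POA), and Ptdss2 at 0.00 ± 0.11 and -0.15 ± 0.09. In the ethanolamine route Pcyt2, the rate-limiting enzyme, was at -0.18 ± 0.07 and -0.15 ± 0.07, and Selenoi, which joins ethanolamine to the lipid, at -0.07 ± 0.09 and -0.05 ± 0.08. Prelid3b and Triap1, which form a complex that carries phosphatidylserine across the mitochondrial intermembrane space, were at -0.04 ± 0.09 and -0.07 ± 0.11 (PH) and at -0.04 ± 0.06 and 0.02 ± 0.10 (POA). The 95% interval of the log2 fold change of Ptdss1 ran from -0.25 to 0.18 in the PH, and of Pcyt2 from -0.31 to 0.00 in the POA, so differences of that size remain possible. The Pcyt2 value of the PH, -0.18 ± 0.07 (SE), was further from 0 than that of the POA.

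Of the 47 annotated neighbours within 100 kb of a member that have a row, 26 could be tested in each region, and 0 were called in any of the 6 comparisons by limma. That count says little as well, since so few of all genes were called. At 4 months against intact mice, an unadjusted limma p under 0.05 was found for 3 of the 26 (PH) and 5 of the 26 (POA), beside 6.06% and 8.50% of all genes. One of the latter was Gm4813, 56856 bases from Gm18517, with a log2 fold change of 0.45 ± 0.12 (SE) and a limma adjusted p of 0.220. The median log2 fold change of the 26 neighbours at that time was 0.04 (PH) and -0.01 (POA), beside -0.01 over all genes in each region. Septin11 was at -0.07 ± 0.08 (PH) and -0.18 ± 0.06 (POA) at 4 months. Sowahb, the nearest tested neighbour on the other side of Gm43173, was at 0.36 ± 0.15 and 0.17 ± 0.13.

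Neuronal markers went against Pisd across libraries. The summed signal of Rbfox3, Snap25, Syt1 and Stmn2 was highest in replicate 5 of the PH 14-day group, at 276458, where Pisd was lowest, and Pearson's r with Pisd was -0.92 over 16 PH libraries, -0.78 without that replicate, and -0.79 over the 17 of the POA. The median sum by group was between 145805 and 156127 for the PH and between 137578 and 146597 for the POA. The microglial sum of Cx3cr1, P2ry12, Csf1r and Tmem119 ran from 6135 to 6769 in the intact PH and from 6586 to 8393 at 4 months, with r of 0.68 with Pisd-ps1 over the 16 PH libraries. With Gm3654 the microglial sum had r of 0.72 over the 17 POA libraries and 0.00 over the 16 PH libraries. Over the 7 genes its r in the POA ran from 0.22 (Gm18517) to that 0.72, with 0.53 for Pisd-ps1 and 0.68 for Pisd. The endothelial sum had r of 0.51 (0.73 without that 14-day replicate) with Pisd-ps1 (PH) and of 0.57 (POA), and the erythroid sum 0.67 and 0.44. For A530053G22Rik the endothelial values were 0.39 and 0.72. The part of these cells in the results was not tested.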

How the data were processed

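The authors isolated total RNA, made stranded mRNA libraries and, per their methods, quantified transcripts with kallisto against mm39 annotation and summarised and normalised them per gene with DESeq2. They deposited 1 table of a normalized signal per gene on a linear scale, not counts. The exact transform is not given in the sources used here. The 33 libraries were assigned to 6 groups by their labels.

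Values were log2-transformed without a pseudocount. Levels were compared within a region only. Genes at 2 times the floor in at least 4 (PH) or 5 (POA) libraries were fitted with limma 3.58.1 (R 4.3.3, trended and robust variances) per region, with the 3 groups and 1 surrogate variable (SV1, from 5 rounds of reweighting) as terms, and p-values adjusted by Benjamini-Hochberg over all genes tested. Nothing says that libraries of a group were independent beyond their labels, so p-values measure only the spread between these samples. The fit was tested on simulated data. Transcript copies were found with BLAST 2.17.0 (at least 75% identity over 50% of a transcript), sequences aligned with MAFFT 7.526 and taken from GENCODE M39. Of 41565 table names, 40593 were in M39, and 1259 entries without a name were left out.

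The 7 genes and all lists were chosen with earlier results of these data known. Named genes are the 7 members, the lists' genes, and by rule the 3 genes with the highest smaller r of the regions for each member. Alternatives were batch or no covariate, SV1 with batch, a replicate block, only the groups compared, other filters, a pseudocount of 16, centred libraries and leaving out each library.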

Additional observations from a re-analysis of the deposited data

Results flagged for a closer look

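In 4 of the 42 sets of values of 1 gene in 1 group, a single library stood apart from the rest of its group by Dixon's test, which chance alone gives in about 1 of 20 such sets. Pisd-ps1 was at 6309.5 in POA 14-day replicate 6, where the other 5 libraries lay between 1472 and 2692. That replicate had the lowest sum of all libraries, at 88.7% of the median sum. It also held the highest Pisd (3201) and Pisd-ps2 (740.5) of its group. Pisd-ps2 was at 1348 in POA 4-month replicate 5, where the others lay between 498 and 755, and the same library held the highest Pisd-ps1 value, 10939. Gm18517 was at 368 in PH 4-month replicate 3, against 207 to 242 in the others. Gm43173 was at 39.6 in intact POA replicate 4, against 22.8 to 23.7 in the others.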

How the results depend on the processing

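Among the 7 genes, 2 were called in the PH at 4 months against intact mice, 1 against 14 days and 4 in the POA at 4 months against intact mice. In the PH the first count was 0 with batch in place of SV1 or with no covariate, and 1 with a replicate block, with only the 2 groups compared or without the filter, Pisd-ps1 each time. The PH count against 14 days was 0 in these 5 settings and with SV1 and batch together. In the POA it was 0 with the replicate block or only the 2 groups, 1 with no covariate (A530053G22Rik) or the filter at 4 times the floor (Gm18517), and 2 with SV1 and batch, no filter or centred libraries (Gm3654 and A530053G22Rik each time). Under the filter at 4 times the floor, Gm3654, A530053G22Rik and Gm43173 were too low in the POA to be tested at all. The cause of the other changes was not tested. Leaving out 1 library at a time gave 1 to 3, 0 to 1 and 0 to 4 calls. The POA count was 0 without intact replicate 1 or 4-month replicate 6, and 1 without intact replicate 5. Against intact mice at 4 months, Pisd-ps1 was called in the PH in 16 of 16 such fits and Gm18517 in 9, and of 17 in the POA Gm3654 was in 15, A530053G22Rik in 14, Gm43173 in 5 and Gm18517 in 2. Pisd-ps1 was called against 14 days in 6 of 16. The counts of 0 for the lipid genes and the neighbours stayed at 0 in all. Of 1056 values of a log2 fold change of the 7 genes under an alternative, 0 moved by 1 SD between replicates or more, and 11 turned sign, all of them at 14 days against intact mice. In the PH these were Pisd (0.03 to -0.14), Pisd-ps2 (0.14 to -0.07) and Gm43173 (0.19 to -0.06) with batch or no covariate, Gm3654 (0.14) without intact replicate 1 (-0.15) or 3 (-0.05), and Pisd without 14-day replicate 6 (-0.01). In the POA they were Pisd and Pisd-ps2 with no covariate, at 0.00 and -0.01. Replicate numbers showed no clear pairing of the samples. Libraries sharing a number correlated at -0.18 to 0.39 over 14 PH pairs and -0.31 to 0.39 over 16 POA pairs. Of these pairs, 9 and 14 were over 0.1. Their median was 0.154 (PH) and 0.255 (POA), beside 0.146 and 0.275 for libraries with different numbers in the same batch. Limits: the table holds no counts, so depth cannot be weighed, and values near the floor are imprecise. Reads shared among Pisd, Pisd-ps1 and Pisd-ps2, among the copies of Gm3654, and between Gm43173 and Gm43172 cannot be told apart fully.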
